A study of Homo sapiens with 15 samples.

Results

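The 36 tight junction genes described here are 20 claudins and 16 genes for the proteins that stand beside or under them, out of 58302 genes listed for each library. They form a list of names by role, drawn up with earlier results of these data known, and the list sets no threshold on levels. All 36 names matched 1 listed gene, and all 36 are protein-coding. The data were RNA-seq counts from C4-2B, an established human prostate adenocarcinoma cell line derived from LNCaP, labelled wild type, grown in RPMI with serum, and untreated as far as the labels say. The series is labelled for 15 libraries in 5 groups of 3 replicates, of which the 3 C4-2B libraries were analysed here. The other 4 groups, the neuroendocrine-like DKD and ER cells labelled scr and siPax5 (control and Pax5-targeting siRNA), were not analysed here, so levels in 1 cell line are given and no comparison of conditions. The sample labels do not say whether the replicates came from separate cultures. The paper describes its experiments in general as done in independent replicates, without saying how the replicates of these libraries were grown. The spread between the replicates may therefore be technical.

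Tight junctions seal the space between neighbouring epithelial cells near their apical edge. Claudins are small proteins with 4 passes through the membrane that form the strands of the junction. Some tighten the seal (barrier claudins), others form channels for small ions or water (pore claudins), and for several the effect depends on the cell in which they were studied. Occludin and its relatives, the MARVEL proteins, and the junctional adhesion molecules (JAMs) share the membrane with them. Scaffold proteins of the junctional plaque tie these to actin, and the Par and Crumbs polarity complexes set where the junction forms. In glandular epithelia, including the prostate, the set of claudins present is part of what distinguishes luminal from basal cells.

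Levels are given as TPM, read counts per base of gene length scaled to one common total per library, computed from the deposited counts and gene lengths, as mean ± SD of the 3 libraries. The libraries held 44992971, 49569026 and 46232076 counts, and the 36 genes took 0.198%, 0.200% and 0.200% of them. The label of the cells was checked first. All 5 luminal epithelial markers were high, from EPCAM at 89.9 ± 3.63 TPM to KLK3, which encodes prostate-specific antigen, at 1988 ± 21.1 TPM (SD, n = 3 each). Of the 3 basal markers, TP63 had 0 counts, KRT5 had 1 count and KRT14 was at 0.865 ± 0.118 TPM (SD, n = 3). The summed levels per library were between 2.75 and 3.35 TPM for 4 endothelial markers, almost all of it VWF, between 6.43 and 7.51 TPM for 3 fibroblast markers, all of it COL1A1, between 0.174 and 0.720 TPM for 3 immune cell markers, and between 2.47 and 2.98 TPM for the neuroendocrine markers CHGA and SYP. Their part in the levels below was not tested.

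A few claudins carried nearly all of the claudin RNA in C4-2B. CLDN7, CLDN4 and CLDN3, widespread claudins of simple epithelia, and CLDN12, a claudin without the usual scaffold-binding tail, were all above 60 TPM. CLDN1, the claudin that seals the epidermis, was near 0, and 11 further claudins were below 1 TPM in at least 1 library. In contrast, 15 of the 16 other genes were at 1 TPM or more in every library, where 61.2% of protein-coding genes were. CLDN7, CLDN4 and CLDN3 are the 3 most abundant claudins on the TPM scale, and CLDN1 is a sealing claudin near 0. For that reason the bases before the start sites of these genes are shown. Each runs 5′ to 3′ on the strand of the gene, ends at the last base before the start site, and comes from RefSeq on GRCh38.p14. The windows are chr17:7262479-7262728 (minus strand, the nearer to the gene's end of its 2 listed starts), chr7:73830746-73830995 (plus), chr7:73770271-73770520 (minus) and chr3:190322447-190322696 (minus). Capitals mark CAGGTG or its reverse complement CACCTG, an E-box form that SNAIL and ZEB repressors bind, and AACNNGTT, a core of grainyhead (GRHL) sites.
CLDN7: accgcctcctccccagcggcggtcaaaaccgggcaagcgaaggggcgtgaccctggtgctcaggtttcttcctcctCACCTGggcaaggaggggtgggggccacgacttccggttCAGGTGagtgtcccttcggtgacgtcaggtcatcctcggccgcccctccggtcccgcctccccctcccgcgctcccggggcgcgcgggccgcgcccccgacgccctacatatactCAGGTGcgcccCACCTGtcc
CLDN4: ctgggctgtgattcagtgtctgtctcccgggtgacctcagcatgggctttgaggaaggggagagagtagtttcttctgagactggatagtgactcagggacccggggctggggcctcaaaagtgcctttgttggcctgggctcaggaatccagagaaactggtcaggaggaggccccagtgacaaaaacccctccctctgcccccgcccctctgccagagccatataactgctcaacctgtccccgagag
CLDN3: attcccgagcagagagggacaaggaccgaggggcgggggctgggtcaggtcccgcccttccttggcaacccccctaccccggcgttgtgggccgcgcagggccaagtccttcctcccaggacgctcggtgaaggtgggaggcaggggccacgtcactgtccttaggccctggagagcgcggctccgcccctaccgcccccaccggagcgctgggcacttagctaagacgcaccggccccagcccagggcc
CLDN1: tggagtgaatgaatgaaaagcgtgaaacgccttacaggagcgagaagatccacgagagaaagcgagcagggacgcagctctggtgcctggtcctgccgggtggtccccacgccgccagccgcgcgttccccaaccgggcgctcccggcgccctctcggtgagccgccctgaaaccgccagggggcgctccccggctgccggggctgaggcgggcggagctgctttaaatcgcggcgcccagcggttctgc
The CLDN7 window held CAGGTG or CACCTG 4 times, with first bases 174, 135, 20 and 9 bases before the start. In all, 17.5% of the 35116 windows of this length in the RefSeq table held at least 1 and 0.122% held 4 or more. The windows of CLDN4, CLDN3 and CLDN1, and the other CLDN7 window, held neither motif.

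**Figure D1:**
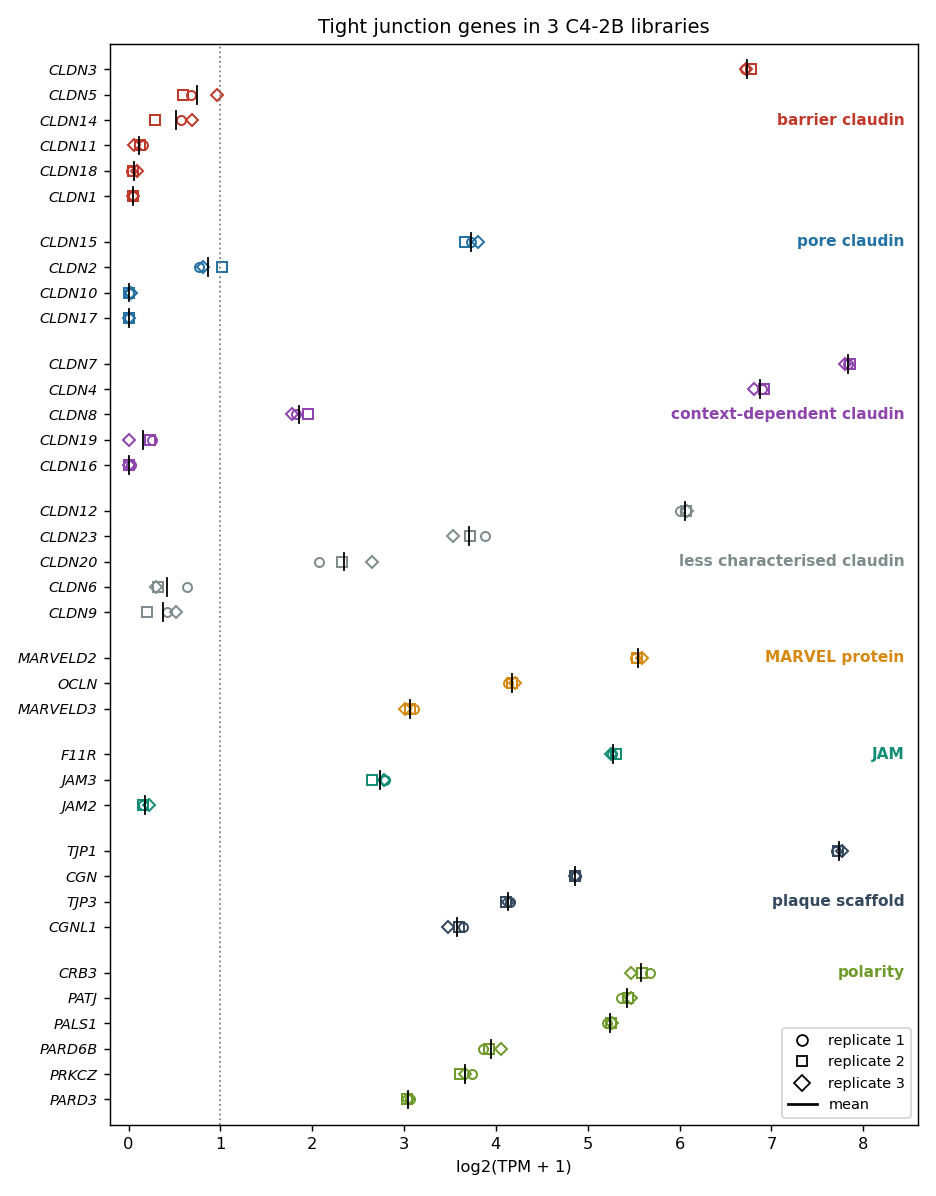
Levels of the 36 tight junction genes in the 3 C4-2B libraries, as log2(TPM + 1) on the horizontal axis, with genes grouped by role and sorted by mean within a role. Symbols are single libraries, the black tick is their mean and the dotted line marks 1 TPM. In the barrier, pore and context-dependent claudin classes 1 or 2 genes stand far above the others. The less characterised claudins are graded, from CLDN12 over CLDN23 and CLDN20 to CLDN6 and CLDN9. The scaffold and polarity genes all lie to the right of the line.

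CLDN7 had the highest level of the 36 genes. It is a claudin of prostate and gut epithelium whose effect on the barrier depends on the cell. On chromosome 17 (7259903 to 7263983, minus strand, ENSG00000181885), it had 8190, 9118 and 8188 counts, or 227, 230 and 222 TPM. All 3 were above every value of TJP1, the next gene, and the mean was 226 ± 3.73 TPM (SD, n = 3). CLDN4, which also acts on the barrier in a context-dependent way and binds Clostridium perfringens enterotoxin together with CLDN3, had 8069, 8977 and 7712 counts, or 118, 120 and 111 TPM. Replicate 3 was the lowest of the CLDN4 values. CLDN3, a sealing claudin, had 1922, 2202 and 1964 counts, or 104, 109 and 104 TPM, below CLDN4 in every library. CLDN3 and CLDN4 are neighbours on chromosome 7 with 29271 bases between them. CLDN12, also on chromosome 7 (90383721 to 90513402), was at 63.2, 66.2 and 66.8 TPM. CLDN7 took 41.3% ± 0.116 of the summed TPM of the 20 claudins, CLDN4 21.2% ± 0.562, CLDN3 19.3% ± 0.234 and CLDN12 11.9% ± 0.424 (SD, n = 3 each). Their order was the same in all 3 libraries, and the ranges of neighbours in this order did not overlap.

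The spacing of these claudins rests on the gene length used. The deposited length is the union of all annotated exons, which for CLDN4 is 4702 bases, and 3004 of these bases (63.9%) lie before the RefSeq start site, in exons up to 31454 bases upstream. The Ensembl canonical transcript of CLDN4 has 1695 bases. With canonical lengths for all genes, a scale chosen after the data were examined, CLDN4 was at 217 ± 8.76 TPM and CLDN7 at 246 ± 3.97 TPM (SD, n = 3 each). CLDN7 was thus above CLDN4 by 1.94 ± 0.0505-fold with deposited lengths and by 1.13 ± 0.0294-fold with canonical ones (SD of the ratio per library, n = 3 each). CLDN3 has a single exon of 1274 bases under either length, and CLDN12 has 6741 deposited and 3533 canonical bases. CLDN3 was above CLDN12 by 1.62 ± 0.0465-fold with deposited lengths, and its ratio to CLDN12 was 0.847 ± 0.0244 with canonical ones, so that the order of this pair turned (SD, n = 3 each). Exons of other genes also lie over 12.3% of the CLDN7 exon bases and 16.3% of the CLDN12 exon bases, where reads were not counted. On lengths outside these overlaps CLDN7 was at 246 and CLDN12 at 74.5 TPM. Of the CLDN12 exon bases, 18.4% lie in the span of CDK14, at a mean of 28.1 TPM. A further gene, GTPBP10, at a mean of 16.7 TPM, spans 6.14% of them. Both genes are on the same strand as CLDN12, and the part of their unspliced RNA in the CLDN12 counts was not tested.

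**Figure D2:**
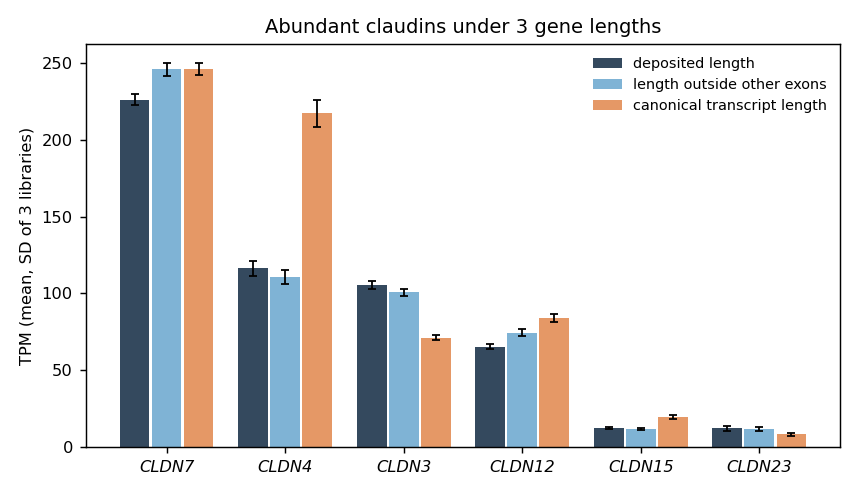
TPM of the 6 most abundant claudins with deposited gene lengths, lengths outside exons of other genes, and canonical transcript lengths. Bars are means and error bars SD of 3 libraries. CLDN4 goes from 116 to 217 TPM with the canonical length, and CLDN3 and CLDN12 change places.

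Claudins were then compared by class. Of the 6 barrier claudins, CLDN3 alone was at 1 TPM or more in every library. CLDN5, the main claudin of blood vessel endothelium, had 30, 28 and 48 counts, or 0.604, 0.513 and 0.948 TPM. Its mean was 0.688 ± 0.229 TPM with deposited lengths and 1.15 ± 0.383 TPM with canonical ones (SD, n = 3 each). The endothelial markers PECAM1, CDH5 and TIE1 were at means from 0.0224 to 0.0625 TPM in the same libraries, and VWF was at 2.91 ± 0.293 TPM (SD, n = 3). CLDN14, a claudin of the inner ear and kidney, had 20, 10 and 26 counts and a mean of 0.440 ± 0.202 TPM, and CLDN11, of myelin and the testis barrier, had 10, 9 and 4 counts and a mean of 0.0843 ± 0.0357 TPM (SD, n = 3 each). CLDN18, of stomach and lung, had 1, 2 and 4 counts. CLDN1 (chromosome 3, 190305701 to 190322475) had 2 counts in each library, 6 in all, with an exact Poisson interval of 2.20 to 13.1 counts. Its mean was 0.0363 TPM, where a total of 3 counts corresponds to 0.0181 TPM. CLDN16, a kidney claudin 65 bases from CLDN1, had 1 count in replicate 1 and none in the others.

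Of the 4 pore claudins, only CLDN15, a cation channel former of the intestine, was at 1 TPM or more in every library. It had 515, 537 and 555 counts, or 12.3, 11.7 and 13.0 TPM, with a mean of 12.3 ± 0.664 TPM, or 19.6 ± 1.06 TPM with canonical lengths (SD, n = 3 each). CLDN2, the cation and water channel claudin of leaky epithelia, had 35, 56 and 38 counts, or 0.708, 1.03 and 0.754 TPM. CLDN15 was above CLDN2 in each library, by 15.3 ± 3.45-fold with deposited lengths and 31.4 ± 7.08-fold with canonical ones (SD, n = 3 each). All CLDN2 exon bases lie within the span of MORC4, a gene on the opposite strand with a mean of 38.1 TPM. Reads on either strand were counted, so reads from unspliced MORC4 RNA and from CLDN2 cannot be told apart here. CLDN10, whose isoforms form cation or anion channels, had 1 count, and 46.1% of its exon bases lie under exons of DZIP1. CLDN17, an anion channel claudin, had 0 counts, which allows up to 0.0556 TPM. The CLDN10 isoforms share 1 row of the tables and were not separated.

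Summed over the class, barrier claudins were at 107 ± 2.21 TPM and pore claudins at 13.1 ± 0.552 TPM (SD, n = 3 each), of which CLDN3 and CLDN15 were 106 and 12.3 TPM. The pore sum was 12.3% ± 0.690 of the barrier sum, and 27.8% ± 1.64 with canonical lengths (SD, n = 3 each). The class medians did not show this difference, since most genes of both classes were at low levels. The median was 0.266 ± 0.0974 TPM for barrier and 0.419 ± 0.0855 TPM for pore claudins (SD, n = 3 each). After log2(TPM + 1), which compresses differences between low levels, the barrier minus pore median was -0.12 ± 0.16 (SD, n = 3), smaller than its spread between libraries. Genes are not replicates of a class and 3 libraries allow no exact two-sided sign-flip p under 0.25, so no test of classes was made.

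Of the 5 context-dependent claudins, CLDN8, a claudin of the distal nephron and colon, was at 2.54, 2.89 and 2.42 TPM, far below CLDN7 and CLDN4 in every library. Its mean of 2.61 ± 0.242 TPM was 1.74 ± 0.161 TPM with canonical lengths (SD, n = 3 each). CLDN19, a partner of CLDN16 in the kidney, had 10, 10 and 0 counts, and its 20 counts lay in replicates 1 and 2 only. Of the 5 less characterised claudins, CLDN23 (chromosome 8) had 433, 420 and 338 counts, or 13.8, 12.2 and 10.5 TPM, with replicate 3 lowest. CLDN20 had 56, 77 and 94 counts, or 3.20, 4.001 and 5.26 TPM. All CLDN20 exon bases lie in the span of TFB1M on the opposite strand, at a mean of 11.8 TPM, and the part of unspliced TFB1M RNA in these counts was not tested. CLDN6 and CLDN9, embryonic claudins on chromosome 16 with 206 bases between them, had 27 and 28 counts in all, with means of 0.347 ± 0.180 TPM (SD, n = 3) for CLDN6 and 0.306 ± 0.140 TPM (SD, n = 3) for CLDN9. The ranges of CLDN6 and CLDN9 overlapped, so these levels did not differ beyond their spread.

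In all, 8 of the 20 claudins and 23 of the 36 genes (63.9%) were at 1 TPM or more in all 3 libraries, where 61.2% of 19708 protein-coding genes were. At 10 TPM or more there were 6 claudins and 18 of the 36 genes, against 43.4% of protein-coding genes. The median over the 20 claudins was 0.549 ± 0.154 TPM, that over the 16 other genes 16.8 ± 0.229 TPM and that over all protein-coding genes 5.86 ± 0.0461 TPM (SD, n = 3 each). The claudin and non-claudin sums were nearly the same, at 548 ± 9.44 and 540 ± 4.68 TPM (SD, n = 3 each). CLDN7 stood at the 97.8 percentile of protein-coding genes, CLDN4 at the 94.7, CLDN3 at the 94.0 and CLDN15 at the 58.9.

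**Figure D3:**
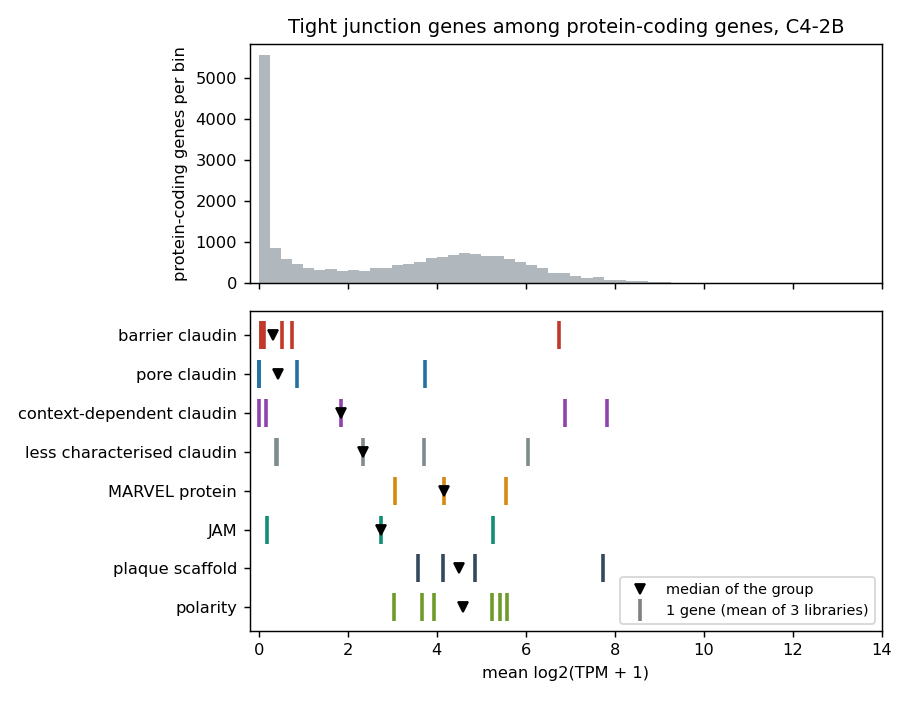
Mean log2(TPM + 1) of protein-coding genes (top, number of genes in bins 0.25 wide) and of the tight junction genes by role (bottom, 1 bar per gene, triangle at the median of the role). Barrier and pore claudins cluster at the left edge with 1 gene far to the right in each, whereas the scaffold and polarity genes lie within or above the main mode of expressed genes.

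The 3 MARVEL genes were all at 1 TPM or more in every library. MARVELD2, or tricellulin, which seals the points where 3 cells meet, was highest at 44.7, 45.2 and 47.2 TPM. OCLN, or occludin, 47961 bases from MARVELD2 on chromosome 5, was at 16.5, 17.0 and 17.5 TPM, and MARVELD3 was at 7.62, 7.38 and 7.07 TPM. MARVELD2 was above OCLN by 2.69 ± 0.0231-fold (SD, n = 3). For OCLN, reads that aligned to several places are missing from this level. Of its exon windows of 75 bases, 3693 of 6053 (61.0%) occur again in GRCh38. With the OCLN length cut to the windows found once, chosen after the data were examined, OCLN was at 43.7 ± 1.22 TPM and MARVELD2 at 46.4 ± 1.32 TPM (SD, n = 3 each). Among the other 35 genes, the share of such windows was at most 3.03% (CLDN6). Of the MARVELD3 exon bases, 50.02% lie in the span of PHLPP2 on the opposite strand, at a mean of 9.67 TPM. Reads on the 16.6% under PHLPP2 exons were not counted, and the part of unspliced PHLPP2 RNA in the rest was not tested. MARVELD3 was at 8.56 ± 0.323 TPM outside overlaps and 10.9 ± 0.402 TPM with canonical lengths (SD, n = 3 each). OCLN was above MARVELD3 by 2.32 ± 0.153-fold with deposited lengths and 1.15 ± 0.0754-fold with canonical ones (SD, n = 3 each).

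Of the JAMs, immunoglobulin-type proteins that hold the membranes together, F11R (JAM-A), the epithelial form, was at 37.4, 38.6 and 37.1 TPM. Another annotated gene on the same strand covers 36.6% of its exon bases, where reads were not counted, and on the length outside it F11R was at 56.6 ± 1.202 TPM (SD, n = 3). JAM3, found in many tissues, was at 5.95, 5.29 and 5.86 TPM. JAM2, of endothelium, had 10, 11 and 15 counts and a mean of 0.135 ± 0.0316 TPM (SD, n = 3). Of the JAM3 exon bases, 34.5% lie in the span of NCAPD3, at a mean of 76.9 TPM. For JAM2, 17.9% lie in the span of ATP5PF, at a mean of 68.2 TPM. Both of these genes are on the opposite strand, and the part of their unspliced RNA in the JAM counts was not tested. The 3 JAM ranges did not overlap. F11R was above JAM3 by 6.63 ± 0.573-fold (SD, n = 3).

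Among the plaque scaffolds, TJP1 (ZO-1), which links claudins and occludin to actin, held 107564 counts over the 3 libraries, more than any other gene of the 36. Its levels of 207, 211 and 216 TPM were below those of CLDN7 in each library, at a ratio to CLDN7 of 0.934 ± 0.0331 (SD, n = 3). TJP3 (ZO-3), its epithelial relative, was at 16.7, 16.2 and 16.6 TPM, and TJP1 was above it by 12.8 ± 0.377-fold (SD, n = 3). CGN, which encodes cingulin, had the smallest spread relative to its mean of the genes above 1 TPM, at 28.2, 28.1 and 28.0 TPM. CGNL1 (paracingulin) was at 11.5, 11.1 and 10.2 TPM, so that CGN was above it by 2.58 ± 0.152-fold (SD, n = 3). The median of the 4 scaffold genes exceeded that of the barrier claudins by 4.17 ± 0.09 on the log2(TPM + 1) scale (SD, n = 3).

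The 6 polarity genes were all at 1 TPM or more in every library too. In the Crumbs complex, CRB3, the epithelial Crumbs protein, was at 50.05, 47.3 and 43.4 TPM, PATJ at 40.2, 42.3 and 43.5 TPM, and PALS1, the adaptor that joins them, at 35.9, 37.3 and 37.3 TPM. CRB3 was above PALS1 by 1.28 ± 0.115-fold (SD, n = 3), and in replicate 3 CRB3 and PATJ were nearly equal. Of the CRB3 exon bases, 47.9% lie in the span of SLC25A23, at a mean of 62.2 TPM. For PALS1, 49.4% lie in the span of ATP6V1D, at a mean of 37.3 TPM. SLC25A23 and ATP6V1D are on the opposite strand, and the part of their unspliced RNA in these counts was not tested. Of the Par complex, the 3 genes among the 36 were lower than these. PARD6B was at 13.5, 14.2 and 15.6 TPM, PRKCZ, an atypical protein kinase C, at 12.3, 11.2 and 11.7 TPM, and PARD3 at 7.36, 7.18 and 7.25 TPM. The deposited length of PRKCZ is 3.20 times its canonical length, and on canonical lengths it was at 25.3 ± 1.19 TPM against 10.0 ± 0.742 TPM for PARD6B (SD, n = 3 each), which turned their order. The median of the 6 polarity genes exceeded that of the barrier claudins by 4.27 ± 0.11 on the log2(TPM + 1) scale (SD, n = 3).

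Over the full order of the 36 genes by mean TPM, 17 of 35 neighbouring pairs had ranges that did not overlap. From CLDN7 down to CLDN8, neighbours whose ranges overlapped were CRB3 and MARVELD2, F11R and PALS1, OCLN and TJP3, the run of CLDN15, CLDN23, PRKCZ and CGNL1, and MARVELD3 and PARD3. From CLDN2 down, the ranges of all neighbours overlapped except those of CLDN1 and CLDN10, with 6 counts and 1.

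Other genes of the junction and its polarity complexes were examined as a list of 33. Of these, 27 (81.8%) were at 1 TPM or more in all 3 libraries, where 61.2% of protein-coding genes were. The median over the 33 genes was 20.5 ± 1.103 TPM (SD, n = 3). The highest were the adherens junction genes CDH1 (E-cadherin) at 369 ± 6.07, CTNNB1 (beta-catenin) at 192 ± 2.77 and CTNND1 (p120-catenin) at 152 ± 0.846 TPM, and the lowest were MAGI2 at 0.347 ± 0.0172, CRB2 at 0.210 ± 0.0508 and CRB1 at 0.00542 ± 0.00939 TPM (SD, n = 3 each). Some of the 33 were above a relative among the 36, and 2 such pairs, chosen after their values were seen, are given. PRKCI, the other atypical protein kinase C, was above PRKCZ by 5.704 ± 0.341-fold with deposited lengths and by 2.13 ± 0.127-fold with canonical ones (SD, n = 3 each). PARD6A was above PARD6B by 2.74 ± 0.267-fold (SD, n = 3). LSR, the angulin that recruits tricellulin, was at 120 ± 4.30 TPM (SD, n = 3).

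Regulators of junction genes were read from a list of 8. GRHL2, an activator of epithelial junction genes including CLDN4, was at 201, 200 and 205 TPM, and its relative GRHL1 at 9.73 ± 0.679 TPM (SD, n = 3). OVOL1 and OVOL2, which repress mesenchymal genes, had means of 9.61 ± 0.694 and 18.7 ± 1.12 TPM (SD, n = 3 each). Among the repressors, ZEB1 had 4 counts in each library and ZEB2 had 4 in all. SNAI2 (SLUG) was at 20.4, 23.4 and 23.2 TPM and SNAI1 (SNAIL) at 6.51, 7.68 and 9.19 TPM, so that the Snail-type repressors were present in all 3 libraries and the ZEB-type ones were near 0.

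Sequence before the start sites was compared with level for the 25 genes with an entry in the RefSeq table, which has 41 windows for them. The ratio of observed to expected CpG had a median of 0.639 over the 41 windows and 0.558 over all 35116. High and low genes were found at both ends of it. CLDN4 had 4 CpG in its window and a ratio of 0.185, at the 21.0 percentile of all windows, while CLDN1, with 6 counts, had 28 CpG and a ratio of 0.948, at the 86.8 percentile. CLDN2 and CLDN17, both low, had 2 windows and 1 window with ratios from 0 to 0.0684. CAGGTG or CACCTG was found in 11 of the 41 windows (26.8%, against 17.5% of all windows), with more than 1 copy at CRB3 (5), CLDN7 (4), PRKCZ (3, in 1 of its 4 windows) and PATJ (2). AACNNGTT was found in 1 of the 41 windows, that of CGN, and in 2.999% of all windows. GGGCGG or CCGCCC, the GC box, was found in 24 of 41 (58.5%) and in 42.6% of all windows. Windows of 1 gene can overlap, as those of OCLN do, and a match of letters is not a bound site.

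**Figure D4:**
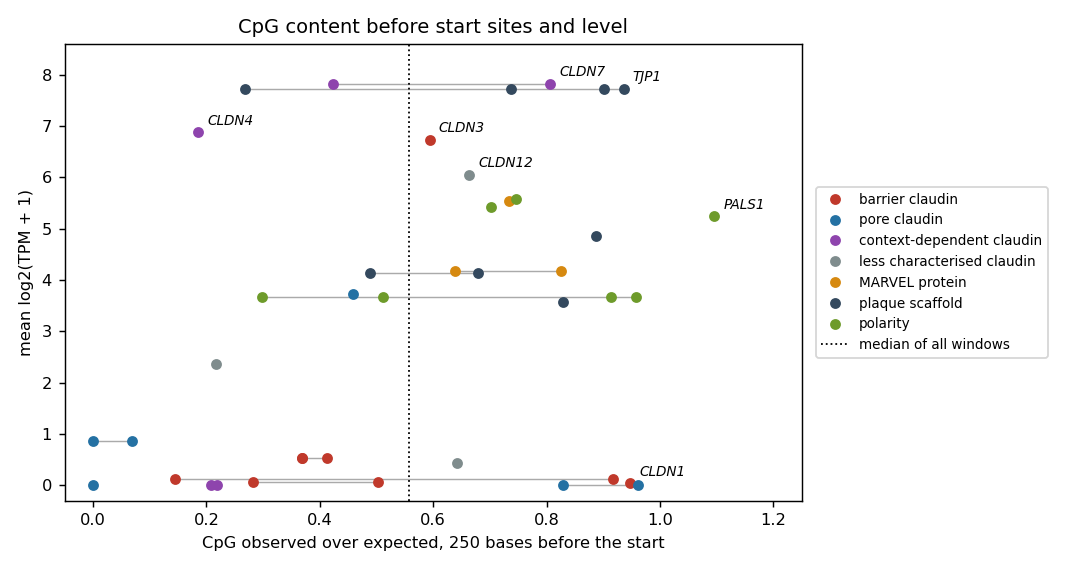
Mean log2(TPM + 1) in C4-2B against the ratio of observed to expected CpG in the 250 bases before each RefSeq start site, for 41 windows of 25 tight junction genes. Points are windows, grey lines join windows of 1 gene and the dotted line is the median of all windows. CLDN4 lies high at a ratio of 0.185 and CLDN1 lies near 0 with a ratio of 0.948.

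Finally, the 36 genes were compared between the 3 libraries. Each gene's counts were tested against library size by a chi-square test over all 22229 genes with at least 30 counts, where 17.3% of genes had an adjusted p under 0.05. Of the 36 genes 27 could be tested and 6 (22.2%) passed, close to that background: CLDN4, TJP1, PATJ, CLDN23, CRB3 and CGNL1. CLDN4 had the smallest adjusted p, 1.18e-05, from a replicate 3 level 7.42% below that of replicate 2. Mates of a pair were counted separately, which inflates this test. With the chi-square divided by 2, CLDN4 alone passed, at an adjusted p of 0.0421, where 0.792% of all genes passed. With a negative binomial variance from edgeR, none of the 27 passed (4 had an unadjusted p under 0.05), CLDN4 included, where 2.82% of all genes passed. With 1 replicate left out, 26 members could be tested. CLDN4 alone passed without replicate 1 (6.76% of all genes), PATJ alone without replicate 3 (8.37% of all genes), and 8 members without replicate 2 (11.5% of all genes). The median coefficient of variation of members with 3000 to 30000 counts was 2.41% (15 genes), beside 2.79% for all 7183 genes in this range. For the 6 members with 30 to 300 counts it was 23.8%, beside 23.0% for 8851 genes.

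**Figure D5:**
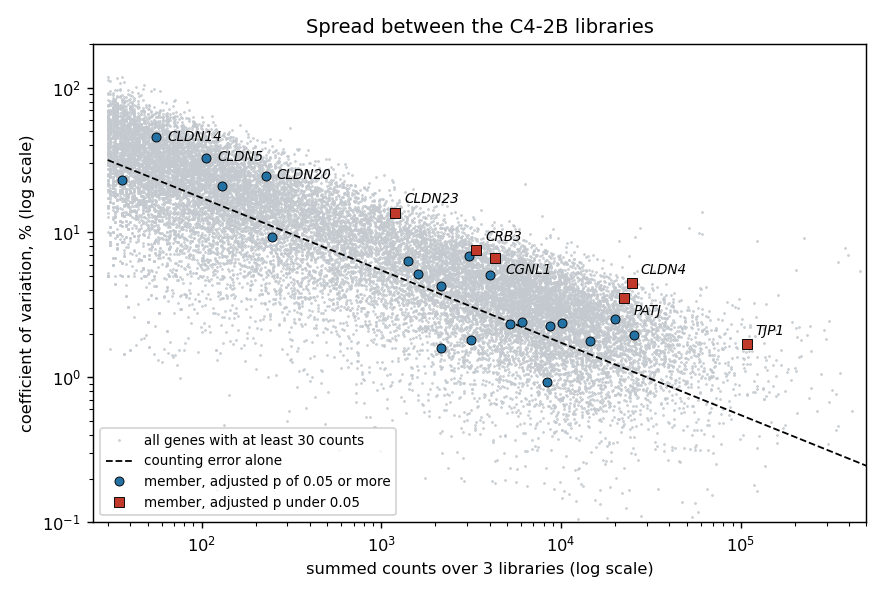
Coefficient of variation of the scaled counts over the 3 C4-2B libraries against summed counts, both on log axes, for all genes with at least 30 counts (grey), and for the tested tight junction genes by the chi-square call (blue circles not passed, red squares passed). The dashed line is the spread that counting error alone gives if each count is an independent event. Mates of a pair were counted separately, so counting error alone can lie above this line. The members lie within the cloud of all genes, at 23.8% for low counts and 2.41% for high ones.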

How the data were processed

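RNA-seq count tables of 3 C4-2B replicates were analysed. Ribosomal RNA was removed from total RNA and directional libraries were read from both ends, and the submitters' processing notes name Trim Galore and STAR 2.7.0f with GRCh38. The authors deposited whole-number counts, made per the file headers by featureCounts 1.6.3 on Ensembl 90 gene models. Its default settings ignored strand, counted each mate by itself and dropped reads that fell on several genes or aligned more than once. The deposited length, another value of the authors' tables, equals the union of a gene's exons for all 58302 genes.

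Symbols were matched by Ensembl identifier for 57532 genes, and gene types and canonical transcript lengths came from GENCODE release 44. TPM was computed here from counts and deposited lengths, over all genes. Total counts were 44992971, 49569026 and 46232076. Exact Poisson intervals are at 95% and the limit for a gene without counts is 3 counts over the 3 libraries. Both cover counting error only, and mates counted separately make them too narrow. TMM factors came from edgeR 4.0.16 and size factors from DESeq2 1.42.0. The comparison of libraries was a chi-square goodness-of-fit test with 2 degrees of freedom and Benjamini-Hochberg adjustment over all genes with at least 30 counts, and it was tested on simulated data. It compares libraries, not conditions. Exon windows of 75 bases were searched on both strands of the primary sequences of GRCh38, and read length was not given in the sources used here. Promoter sequences are those of RefSeq on GRCh38.p14, and the 250 bases before the start were used. Named genes are the 36 members, a list of 33 other junction and polarity genes of which the 3 highest and 3 lowest are named (with LSR, PRKCI and PARD6A named after their values were seen), 8 regulators and lists of cell type markers. The members and lists were chosen with earlier results of these data known. Alternatives were other scalings, lengths, denominators, thresholds, a pseudocount, claudin classes and leaving out each replicate.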

Additional observations from a re-analysis of the deposited data

How the results depend on the processing

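Depth limits the lowest genes, whose few counts have wide counting intervals. Levels also move with the gene length and the denominator used. The gene RN7SL2 alone took 20.3%, 19.6% and 18.9% of all TPM in replicates 1, 2 and 3. Without the 10 most abundant and mitochondrial genes in the denominator, CLDN7 was at 327 and CLDN4 at 168 TPM. With a protein-coding denominator they were at 315 and 162 TPM. Reads over exons of another gene or aligned to several places are missing, and reads from unspliced RNA of another gene on either strand may be included. No paired analysis was possible because files of 1 group were analysed here. Genes at 1 TPM or more were 23 to 25 of 36, and 8 to 10 of 20 claudins, under the alternatives that kept all genes (the highest at a threshold of 0.5 TPM), and 22 genes and 7 claudins with CLDN2 and CLDN20 left out. Canonical lengths, windows found once and leaving out CLDN2 and CLDN20 are alternatives chosen after seeing the data.

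The barrier minus pore median difference of -0.12 turned to 0.0017 with a pseudocount of 0.1, 0.22 with class means and 0.061 with wide classes, and ranged from -0.16 to -0.02 with 1 replicate left out. No direction can be read from it. Scaffold minus barrier was 5.10 with CPM, 3.99 with canonical lengths, 4.57 without the 10 most abundant and mitochondrial genes in the denominator, 4.53 with a protein-coding denominator, 6.11 with a pseudocount of 0.1, 3.70 with means and 3.99 with wide classes, and polarity minus barrier was, in the same order, 4.43, 4.66, 4.67, 4.63, 6.21, 3.11 and 4.09. The pore sum as a percent of the barrier sum was 27.7% with CPM, 27.8% with canonical lengths and 17.4% with wide classes. The share of the 3 most abundant claudins, 81.8%, was 87.8% with CPM, 81.0% outside overlaps and 83.7% with canonical lengths, where CPM and canonical lengths put CLDN12 in place of CLDN3. The members called between libraries were 6, 1 with the chi-square divided by 2, 0 with the negative binomial variance of edgeR (4 at an unadjusted p under 0.05; 2.82% of all genes were called), and 1 to 8 with 1 replicate left out, namely PATJ without replicate 3 (8.37% of all genes), CLDN4 without replicate 1 (6.76%) and 8 genes without replicate 2 (11.5%). Without replicate 3, CLDN18 went from 0.0400 to 0.0251 TPM and CLDN10 to 0, and without replicate 1 CLDN16 went to 0.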
